A study of Mus musculus with 29 samples.

Results

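Nephron progenitor cells (NPCs) without BMP7 were compared with NPCs without CHIR, to see which transcripts depended on 1 of the 2 signals. The comparison covers 4 of the 29 libraries of the series, chosen by their labels. They are minus BMP7 after 4 and 8 days and minus CHIR after 4 and 8 days, with 1 library per component and day. A further 5 libraries of the same experiment served as its background. They are minus Heparin and minus Y27632 after 4 and 8 days each, called the mild withdrawals below, and minus LIF after 8 days. All 9 are labelled Kidney, age E13.5, strain C57BL/6 and 129 hybrid, and all carry Six2-GCE, an allele that puts a fusion of GFP and an inducible Cre under the control of Six2. The cells grew as 3D aggregates in NPSR medium, and the 9 libraries were made from total RNA. The labels do not say from which line or passage the cells came, nor that the withdrawals were started from the same culture, and no library of complete medium stands beside them. Days 4 and 8 are different times and not replicates, so the p-values below measure spread between these libraries and cannot speak for other cultures.

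Nephron progenitors form the cap mesenchyme of the developing kidney, where they renew themselves or turn into nephrons. BMP7 is a secreted growth factor that acts through receptor kinases, SMAD proteins and MAP kinase branches, and it keeps these cells alive and dividing. CHIR is a small molecule that blocks the kinase GSK3, which stabilises β-catenin and turns on genes of the canonical Wnt pathway, much as Wnt9b from the ureteric bud does. In this pathway a low level of signal favours renewal of the progenitors, and a high level their differentiation. Heparin is a sulphated sugar chain that binds growth factors, Y27632 blocks the kinase ROCK, and LIF is a cytokine that signals through STAT3.

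The authors gave levels as RPKM, which scales a gene's reads by transcript length and library size. Differences below are on the log2(RPKM + 1) scale, minus BMP7 less minus CHIR, with the standard error (SE) of a limma fit over the 9 libraries that has component and day as terms. On this scale the difference of a transcript at a low level is smaller than its fold change. A gene is called where limma's Benjamini-Hochberg adjusted p is under 0.05 over the 12189 genes that reached 1 RPKM in 2 or more of the 9 libraries. The 9 libraries held an estimated 6.7 to 17.0 M reads, with minus Heparin day 4 the shallowest. A value of 0 can be a failed estimate, since Eno1, an enzyme of glycolysis, is listed at 0 in all 9. Symbols of microRNAs and other short RNAs jumped between 0 and high levels within the mild withdrawals and are not described.

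More genes were called lower than higher in minus BMP7 against minus CHIR. In minus BMP7, 481 genes were called lower than in minus CHIR, 3.95% of those tested, and 273 were called higher, 2.24%. All 754 had the same sign on both days. The fit counts a difference that changes between the days as spread, so a gene with opposite signs could hardly be called. At an unadjusted limma p under 0.05 stood 2675 genes. Of the higher calls 51 reached 1 RPKM in the minus BMP7 libraries alone, and no lower call did so in minus CHIR alone. Those genes passed the filter only through the withdrawal in which they were high, so for them a difference was built in. The same holds for genes that reached 1 RPKM in only 1 other library of the fit, which these counts leave out. Scn4b and Cp, called higher in minus BMP7, and Dkk1, called lower, are of this kind. A difference of at least 1 on each day, a description with no test, was found for 244 lower genes (2.00%) and 194 higher genes (1.59%), and 216 and 161 of them were called. Between the days 63 genes differed by at least 1 in opposite directions. With only the 4 libraries in the fit, the counts were 6 lower and 5 higher, so the calls also rest on the spread in the 4 mild libraries. The single minus LIF library leaves no residual in the fit. They also rest on single libraries. The lower and higher counts were 69 and 53 without minus BMP7 day 4, 177 and 90 without minus BMP7 day 8, 608 and 336 without minus CHIR day 4, and 638 and 525 without minus CHIR day 8. Without 1 of the 4 mild libraries they were 133 to 153 and 81 to 92.

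**Figure D1:**
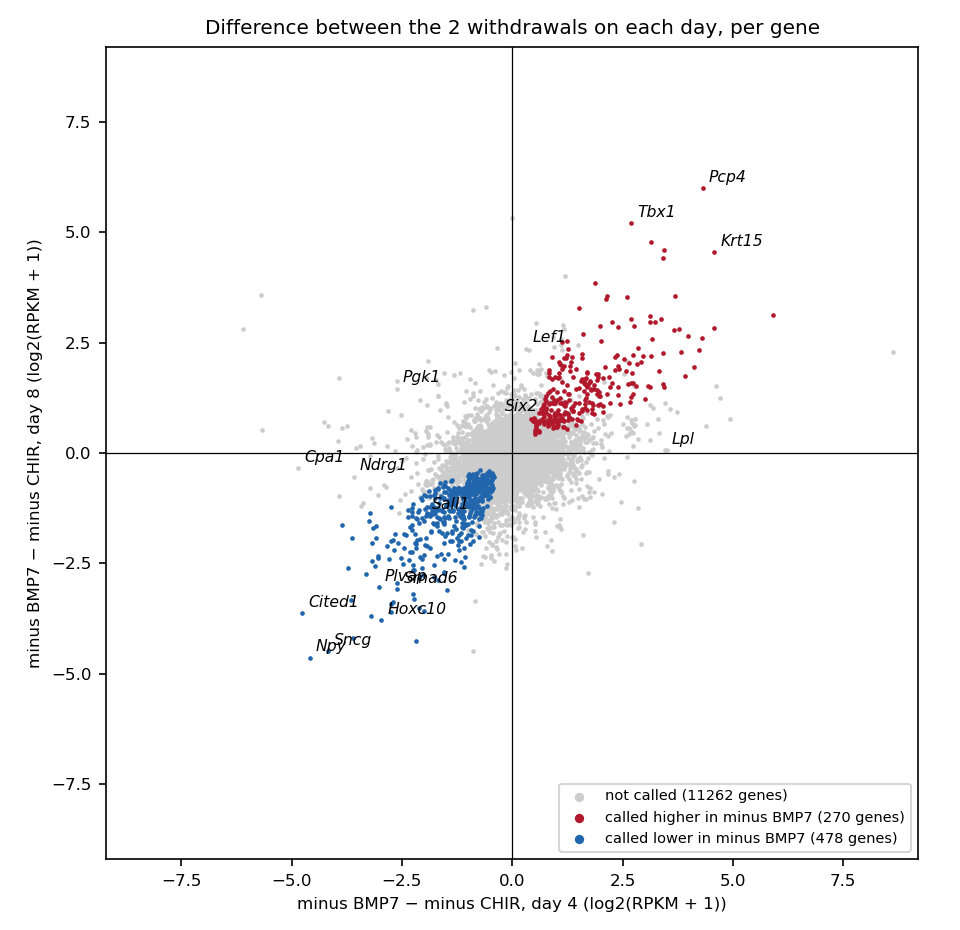
Log2(RPKM + 1) difference of minus BMP7 less minus CHIR on day 4 (x axis) and on day 8 (y axis), 1 point per gene, short RNA genes left out. Called genes lie in the upper right (higher in minus BMP7) and lower left (lower in minus BMP7), while Pgk1, Cpa1 and Lpl differed on day 4 and were near 0 or on the other side on day 8.

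The levels of the mild withdrawals show on which side a difference lay. Of the 481 genes called lower, 216 (44.9%, beside 12% of all genes tested) had both minus BMP7 libraries below all 4 mild libraries, while the minus CHIR libraries were not both outside on the same side. A further 111 (23.1%, beside 1.28%) had minus BMP7 below and minus CHIR above the mild range, 65 had both withdrawals below it, a smaller share than the 14.6% of all genes tested, and 59 (12.3%, beside 4.89%) had only minus CHIR above it. Of the 273 genes called higher, 128 (46.9%, beside 11.4%) had only minus BMP7 above the mild range, 87 (31.9%, beside 12.7%) had both withdrawals above, 30 (11%, beside 0.492%) had minus BMP7 above and minus CHIR below, and 19 had only minus CHIR below. The last class took 6.96% of the higher calls, close to its 6.46% of all genes tested. The comparison of either withdrawal with the mild ones shares the mild libraries, so their counts are given only side by side: 1985 genes were called lower (16.3%) and 1731 higher (14.2%) in minus BMP7, and 795 lower (6.52%) and 856 higher (7.02%) in minus CHIR.

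**Figure D2:**
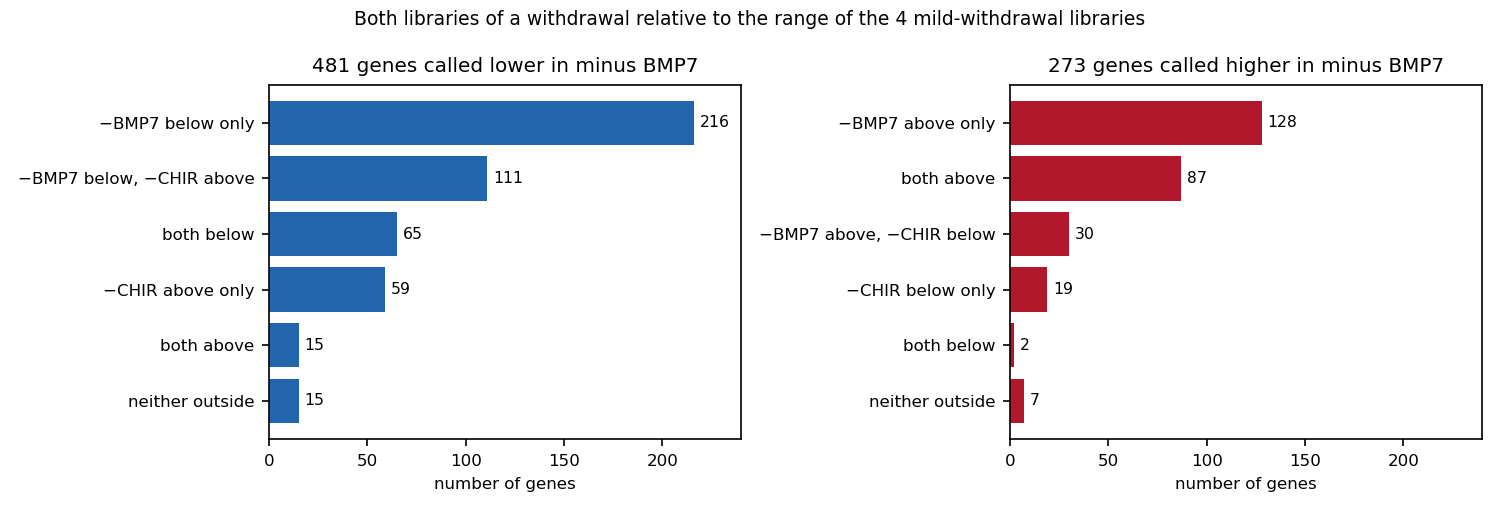
Number of called genes (x axis) by where both libraries of minus BMP7 and of minus CHIR lay relative to the range of the 4 mild libraries. Among genes lower in minus BMP7 the class with only minus BMP7 below the mild range is the largest, at 216, and among genes higher in minus BMP7 the class with only minus BMP7 above it, at 128.

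Among Cited1, Sall1 and Six2, only Cited1 was below the mild range on both days in minus BMP7 and not in minus CHIR. Cited1, a transcriptional co-activator that marks the self-renewing progenitors, stood at 6.36 and 2.76 RPKM in minus BMP7 on days 4 and 8, against 199.6 and 45.3 RPKM in minus CHIR. It stood at 99.2 and 79.3 RPKM in minus Heparin and 94.1 and 73.7 RPKM in minus Y27632. The 2 minus BMP7 values were below every other library, and the minus CHIR values lay above the mild range on day 4 and below it on day 8. The difference was -4.20 ± 0.44 (SE, limma adjusted p = 0.00966), and against the mild withdrawals minus BMP7 was called at -4.05 ± 0.38 (limma adjusted p = 0.003) while minus CHIR stood at 0.15 ± 0.38 (limma adjusted p = 0.801). In bulk RNA such as this, fewer cells of a type and less RNA per cell cannot be told apart.

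Sall1, a zinc finger repressor that progenitors need, was low in both withdrawals and lower without BMP7. It stood at 2.24 and 1.64 RPKM in minus BMP7 and 11.6 and 6.05 RPKM in minus CHIR, below 20.6 and 28.4 RPKM in minus Heparin and 21.8 and 27.6 RPKM in minus Y27632. The difference between the withdrawals was called at -1.69 ± 0.32 (limma adjusted p = 0.0457), a value near the threshold that was called under 8 of 19 other settings. Six2, the transcription factor that defines the progenitor state, was not called. It stood at 133 and 130.3 RPKM in minus BMP7 and 166 and 74.2 RPKM in minus CHIR, against 168 to 251 RPKM in the mild withdrawals, and the difference was 0.24 ± 0.26 (limma adjusted p = 0.625). Both withdrawals lay below the mild range, and the level stayed above 70 RPKM in all 4 libraries. Against the mild withdrawals, 14 of 29 tested cap mesenchyme genes were called lower in minus BMP7, beside 16.3% of all genes tested. The 4 called higher were near the 14.2% of all genes tested. Cited1 and Sall1 were called lower in minus BMP7 than in the mild withdrawals and Six2 was not. These 3 markers thus disagree on the label of nephron progenitors in minus BMP7.

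Of the 34 genes listed for cap mesenchyme progenitors, 29 could be tested, and 11 were called lower in minus BMP7 and 1 higher, where 3.95% and 2.24% of all genes tested were. The median difference was -0.32, beside 0.02 for all genes. Uncx, a homeodomain factor of the mesenchyme, stood at 8.51 and 4.85 RPKM in minus BMP7 and 56.2 and 23.1 RPKM in minus CHIR (-2.32 ± 0.40). The Slit receptor Robo2, which limits where the ureteric bud grows, stood at 5.88 and 5.16 RPKM in minus BMP7 and 32.1 and 14.4 RPKM in minus CHIR (-1.80 ± 0.29), against 34.9 to 39.7 RPKM in the mild withdrawals, so it was below them in both. Six4 (-0.81) and Eya4 (-0.81), both regulators of transcription, were called lower in minus BMP7 at levels under 5 RPKM. Not all of these differences were losses. Itga8, the integrin that receives nephronectin from the bud, was above the mild range of 6.72 to 10.1 RPKM in both, at 11.8 and 18.3 RPKM in minus BMP7 and 21.6 and 31.6 RPKM in minus CHIR (-0.79 ± 0.13).

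The 1 member called higher, Pcp4, encodes a small calmodulin-binding protein and had the largest difference among the genes described here as called higher, short RNAs aside. It stood at 86.2 and 209.6 RPKM in minus BMP7 and 3.39 and 2.28 RPKM in minus CHIR, against 1.24 to 3.73 RPKM in the mild withdrawals. Both minus BMP7 values were above all other libraries, and the difference was 5.16 ± 0.39 (limma adjusted p = 0.00534).

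**Figure D3:**
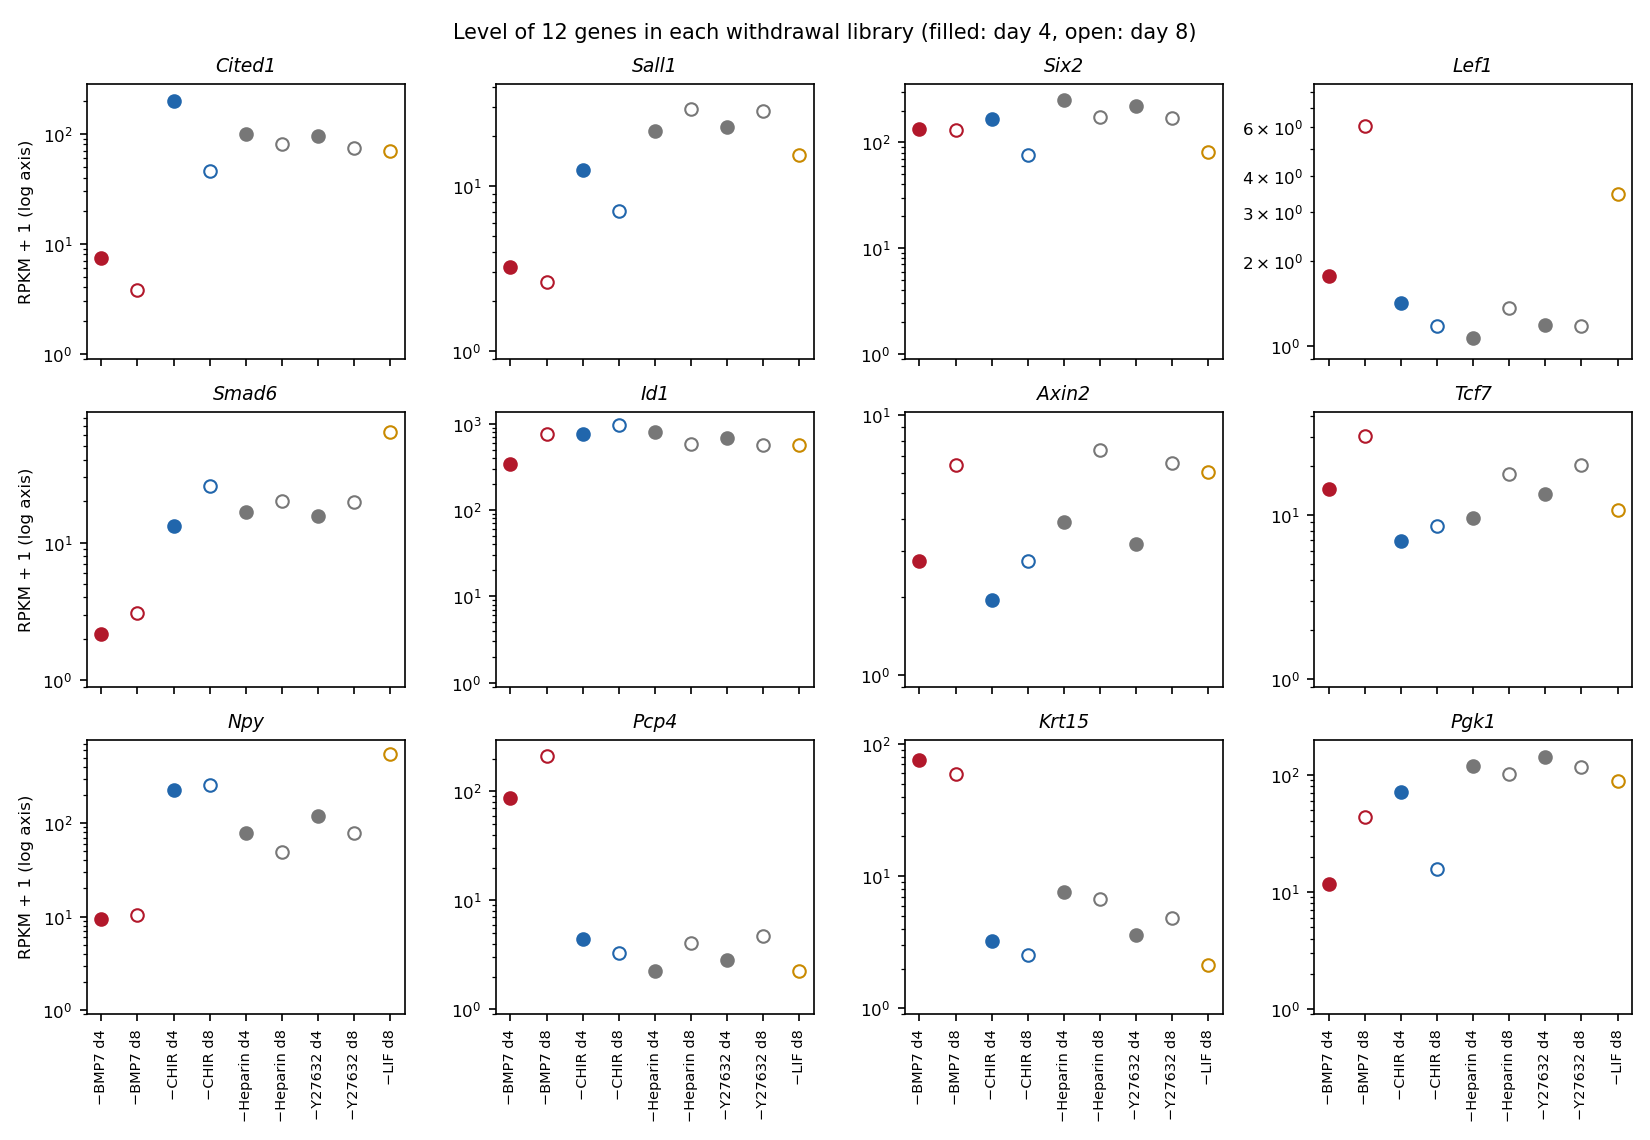
RPKM + 1 (y axis, log scale) of 12 genes in each of the 9 withdrawal libraries, with minus BMP7 at the left, then minus CHIR, the mild withdrawals and minus LIF; filled points are day 4 and open points day 8. Cited1, Smad6 and Npy are lowest in both minus BMP7 libraries, Pcp4 and Krt15 are high there alone, and Pgk1 is lowest in minus BMP7 day 4 and minus CHIR day 8.

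Hox genes encode the factors that mark position along the body axis and sit in 4 clusters. The family was taken up after its values had been seen, and all its members named by cluster and number were counted. Of 39 in the table, 32 could be tested, and 17 were called lower in minus BMP7 and none higher. The calls were spread unevenly over the clusters: all 7 tested Hoxc genes, 6 of 8 Hoxb genes, 4 of 8 Hoxd genes and none of 9 Hoxa genes, where 3.95% of all genes tested were called lower. The median difference was -2.06 for Hoxc, -1.78 for Hoxb, -0.69 for Hoxd and 0.31 for Hoxa.

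Hoxc10, which helps to pattern the hind part of the body, stood at 6.18 and 1.37 RPKM in minus BMP7 and 55.5 and 31.7 RPKM in minus CHIR, against 74.7 to 95.1 RPKM in the mild withdrawals (-3.38 ± 0.38, limma adjusted p = 0.0114). The minus CHIR libraries were below the mild range as well, and minus BMP7 was lower still. Hoxc4 (-2.39), Hoxc9 (-2.15), Hoxc11 (-1.76), Hoxc6 (-1.57), Hoxc8 (-2.06) and Hoxc5 (-1.06) followed the same order. Among the 7 the CHIR libraries always lay between those of minus BMP7 and the mild range. In the Hoxb cluster, Hoxb2 stood at 3.42 and 1.96 RPKM in minus BMP7 and 18 and 20.2 RPKM in minus CHIR, against 31.3 to 36.2 RPKM in the mild withdrawals (-2.47 ± 0.21). Hoxb9 without CHIR was inside the mild range on day 4 and above it on day 8, with 0.344 and 0.228 RPKM in minus BMP7, 5.38 and 6.77 RPKM in minus CHIR and 4.8 to 6.41 RPKM in the mild withdrawals (-2.45 ± 0.17).

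In the Hoxd cluster the called genes were the last ones in the row, Hoxd10 to Hoxd13, which are turned on latest in development. Hoxd13 stood at 0.188 and 0.1 RPKM in minus BMP7 and 9.65 and 2.57 RPKM in minus CHIR (-2.43 ± 0.34), and Hoxd12 at 1.36 and 1.32 RPKM in minus BMP7 and 28.4 and 7.78 RPKM in minus CHIR (-2.78 ± 0.40). Hoxd11 and Hoxd10, known from the kidney mesenchyme, differed by -0.74 ± 0.15 and -0.82 ± 0.13. Both were called, Hoxd11 close to the threshold (limma adjusted p = 0.0496). The Hoxa genes were not called by limma in either direction, and 4 of the 9 had an unadjusted p under 0.05. Hoxa10 stood at 72.3 and 69.7 RPKM in minus BMP7 and 79.5 and 54.1 RPKM in minus CHIR, and Hoxa11, which patterns the kidney together with Hoxd11, at 77.2 and 76.3 RPKM in minus BMP7 and 72.7 and 50.2 RPKM in minus CHIR. Neighbouring genes of a cluster lie close together and have antisense transcripts, and whether the counting used strand is not given, so single members are less certain than the clusters.

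**Figure D4:**
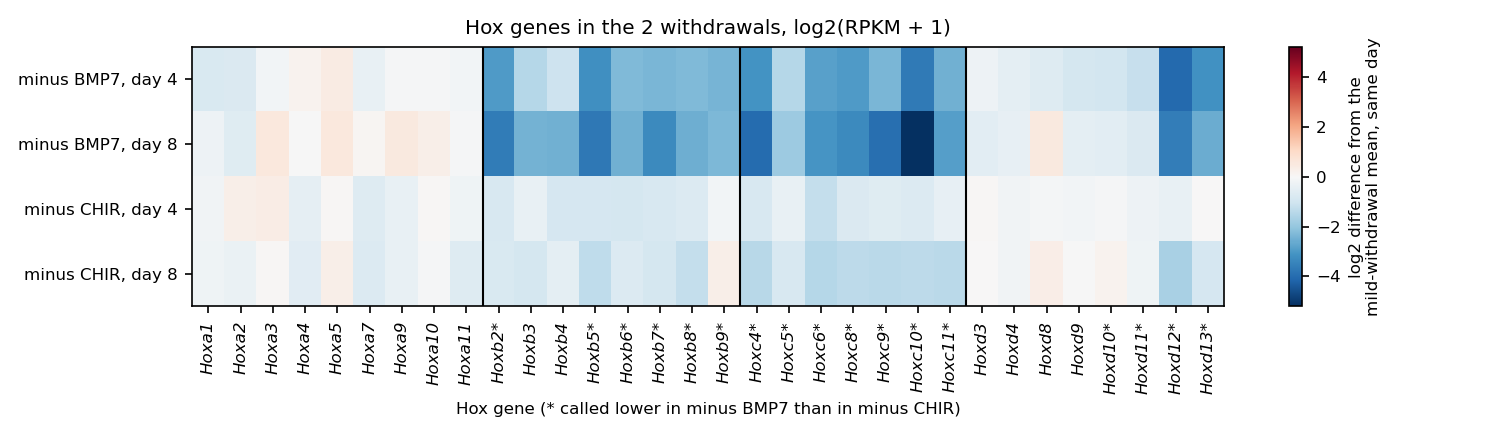
Log2(RPKM + 1) of the 32 tested Hox genes (columns, by cluster) in the minus BMP7 and minus CHIR libraries (rows), as the difference from the mean of the 2 mild libraries of the same day; blue is lower. The Hoxb and Hoxc blocks, Hoxd12 and Hoxd13 are darkest in minus BMP7, down to -5.17, and the Hoxa block stays pale in all 4 libraries.

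Targets of BMP and SMAD signalling were next examined. Of 27 listed genes 19 could be tested, and 18 of them had a negative difference, with a median of -0.74 beside 0.02 for all genes. Only 2 were called lower, where 3.95% of all genes tested were, and none higher. Smad6, an inhibitory SMAD that damps the pathway as its feedback, stood at 1.18 and 2.06 RPKM in minus BMP7, against 12.2 and 24.9 RPKM in minus CHIR, 15.8 and 19.1 RPKM in minus Heparin and 14.6 and 18.7 RPKM in minus Y27632. The minus BMP7 libraries were far below all others, and minus CHIR lay on both sides of the mild range. The difference was -2.84 ± 0.19 (limma adjusted p = 0.00451), with -2.80 ± 0.17 for minus BMP7 and 0.04 ± 0.17 for minus CHIR against the mild withdrawals. Bmper, a secreted regulator that binds BMPs, stood at 1.01 and 0.696 RPKM in minus BMP7 and 2.48 and 3.31 RPKM in minus CHIR, both below the mild range of 5.39 to 12.9 RPKM (-1.07 ± 0.18).

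Other feedback genes of the pathway leaned the same way without passing. Smad7, the second inhibitory SMAD, stood at 1.56 and 3.54 RPKM in minus BMP7 and 6.72 and 10.1 RPKM in minus CHIR (-1.44 ± 0.30, limma adjusted p = 0.0546). Id2, an inhibitor of helix-loop-helix factors, stood at 24.8 and 133 RPKM in minus BMP7 and 126 and 242 RPKM in minus CHIR (-1.58 ± 0.41, limma adjusted p = 0.0956). The best known target, Id1, was not called: it stood at 343 and 766 RPKM in minus BMP7 and 758 and 963 RPKM in minus CHIR, against 560.3 to 808 RPKM in the mild withdrawals (-0.74 ± 0.39, limma adjusted p = 0.342). Only its day 4 value in minus BMP7 was below the others. Id3 stood at 979 and 1307 RPKM in minus BMP7 and 1134 and 1631 RPKM in minus CHIR (-0.27 ± 0.19, limma adjusted p = 0.476). In minus BMP7, then, Smad6 was low on both days while Id1 and Id3 held most of the summed level of the target list.

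Among 24 tested ligands, receptors and signal transducers of the pathway, 2 were called higher in minus BMP7 and none lower, where 2.24% and 3.95% of all genes tested were. Gdf6, a ligand of the BMP family, stood at 8.44 and 6.97 RPKM in minus BMP7 and 0 and 0.0187 RPKM in minus CHIR, and was at or below 0.0408 RPKM in the mild withdrawals. It passed the filter through minus BMP7 alone, so its call is no support. Rgma, a membrane co-receptor for BMPs, stood at 18.4 and 20.9 RPKM in minus BMP7 and 8.35 and 5.7 RPKM in minus CHIR (1.38 ± 0.22). The Bmp7 gene itself was not called, with 3.54 and 4.47 RPKM in minus BMP7 and 4.19 and 0.593 RPKM in minus CHIR, against 5.13 to 6.67 RPKM in the mild withdrawals (0.79 ± 0.48, limma adjusted p = 0.396). Its lowest value was in minus CHIR day 8. The added protein does not appear in these values, which count only the cells' own transcripts.

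The promoters of the called feedback genes were read from RefSeq (mouse build GRCm38.p6) as the 250 bases before the gene's start, printed 5′ to 3′ on the gene's strand. Capitals mark GGAGCC or its reverse complement GGCTCC, a GC-rich motif described for SMAD proteins, in Smad6 (chr9:64022060-64022309, minus strand) and Bmper (chr9:23222826-23223075, plus strand). In Dkk1 (chr19:30549497-30549746, minus strand), a Wnt antagonist described below, they mark CTTTGA or its reverse complement TCAAAG, the core of the motif of TCF and LEF factors.
Smad6: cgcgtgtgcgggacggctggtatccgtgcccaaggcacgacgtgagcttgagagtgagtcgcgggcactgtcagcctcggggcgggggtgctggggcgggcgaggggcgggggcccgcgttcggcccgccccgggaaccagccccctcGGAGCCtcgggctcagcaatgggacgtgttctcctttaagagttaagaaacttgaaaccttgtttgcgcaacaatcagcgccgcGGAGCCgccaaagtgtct
Bmper: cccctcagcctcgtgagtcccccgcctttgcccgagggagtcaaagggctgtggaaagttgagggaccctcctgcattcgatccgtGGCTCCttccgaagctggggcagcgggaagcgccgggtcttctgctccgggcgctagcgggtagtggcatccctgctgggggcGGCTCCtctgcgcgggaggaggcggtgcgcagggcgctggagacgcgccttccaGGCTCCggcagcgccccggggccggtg
Dkk1: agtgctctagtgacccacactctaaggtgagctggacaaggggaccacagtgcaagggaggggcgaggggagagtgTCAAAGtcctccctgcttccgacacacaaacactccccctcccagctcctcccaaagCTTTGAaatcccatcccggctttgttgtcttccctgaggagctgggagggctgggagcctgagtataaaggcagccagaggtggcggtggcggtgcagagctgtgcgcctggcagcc
The Smad6 window holds GGAGCC 2 times and the Bmper window 3 times on the opposite strand, and the Dkk1 window holds CTTTGA 1 time on each strand. Left in lower case are 1 GGAGCC in the Dkk1 window and 1 CTTTGA, on the opposite strand, in the Bmper window, and no match overlaps another. Of 32851 promoter windows in the table, 26.0% hold GGAGCC on either strand and 13.8% hold CTTTGA, so each is common. A second motif of the SMAD type, GGCGCC, was also searched. It was absent from the Smad6, Bmper and Dkk1 windows, and 9.59% of all windows hold it. A match is not a site of binding, and no binding data were used here.

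Loss of CHIR was examined through the Wnt pathway. Of 23 tested targets 2 were called higher in minus BMP7 and 1 lower, where 2.24% and 3.95% of all genes tested were, with a median difference of -0.09 beside 0.02 for all genes. Tcf7, a β-catenin partner that is itself a target, stood at 13.4 and 29.2 RPKM in minus BMP7 and 5.94 and 7.62 RPKM in minus CHIR, against 8.54 to 19.2 RPKM in the mild withdrawals (1.43 ± 0.20, limma adjusted p = 0.0194). The minus CHIR libraries were below every mild library. Axin2, the feedback inhibitor most used as a readout of the pathway, stood at 1.74 and 5.41 RPKM in minus BMP7, 0.933 and 1.74 RPKM in minus CHIR, 2.88 and 6.34 RPKM in minus Heparin and 2.18 and 5.56 RPKM in minus Y27632. It was lower in minus CHIR than in the mild withdrawals (-1.10 ± 0.17, limma adjusted p = 0.0268), and the difference between the 2 withdrawals was 0.87 ± 0.20 (limma adjusted p = 0.0702), which did not pass. On each day both withdrawals lay below both mild libraries of that day, minus CHIR further than minus BMP7.

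Lef1, a β-catenin partner that rises as progenitors start to differentiate, stood at 0.765 and 5.06 RPKM in minus BMP7 and 0.417 and 0.178 RPKM in minus CHIR, against 0.0647 to 0.361 RPKM in the mild withdrawals. Its only value above 1 RPKM among these 8 libraries was minus BMP7 day 8, and the difference was 1.34 ± 0.50 (limma adjusted p = 0.199). With so low a level in the mild withdrawals, a loss of Lef1 without CHIR was not detectable. Wnt4, the Wnt of nephron induction, was also low, with 1.35 and 1.97 RPKM in minus BMP7 and 1.03 and 1.89 RPKM in minus CHIR (0.12 ± 0.19, limma adjusted p = 0.747). The secreted Wnt inhibitor Sfrp2 stood at 13.7 and 20.4 RPKM in minus BMP7 and 7.17 and 5.51 RPKM in minus CHIR (1.28 ± 0.24).

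Dkk1 and Dkk2, secreted proteins that act on the Wnt co-receptors, were both higher without CHIR. Dkk1 stood at 0.0264 and 0.168 RPKM in minus BMP7 and 3.18 and 6.99 RPKM in minus CHIR, against 0.0321 to 0.392 RPKM in the mild withdrawals (-2.40 ± 0.34). Outside minus CHIR it reached 1 RPKM only in minus LIF. It thus passed the filter through minus CHIR, so its call is no support. Dkk2 stood at 10.5 and 4.04 RPKM in minus BMP7 and 45.2 and 59.4 RPKM in minus CHIR, against 13.6 to 32.5 RPKM in the mild withdrawals (-2.80 ± 0.36), so the 2 withdrawals lay on opposite sides of the mild range. Of 27 tested Wnt ligands, receptors and transducers, 1 was called higher in minus BMP7 and 3 lower, where 2.24% and 3.95% of all genes tested were. Wnt5b stood at 62.9 and 68.7 RPKM in minus BMP7 and 26.7 and 32.4 RPKM in minus CHIR (1.13 ± 0.10), and Wnt5a, its close relative, went the other way with 15.8 and 15.2 RPKM in minus BMP7 and 30.1 and 54.2 RPKM in minus CHIR (-1.33 ± 0.21). Rspo3, which strengthens Wnt signals at the receptor, stood at 3.57 and 3.43 RPKM in minus BMP7 and 20.7 and 8.93 RPKM in minus CHIR (-1.71 ± 0.33). Tcf7l2 differed by -0.59 ± 0.12.

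By a rule that needs both days, fewer transcripts were low without CHIR alone than without BMP7 alone. The rule asked for a level lower by at least 1 than the mild mean of the same day on both days. The other withdrawal had to stay above -0.5 on both days. Among genes with a mild mean of at least 5 RPKM, short RNAs left out, it found 76 in minus BMP7 and 7 in minus CHIR. The rule requires a low level already on day 4. From day 4 to day 8, 360 genes fell by at least 1 in minus CHIR, beside 66 in minus BMP7. Against the mild withdrawals, 16.3% of all genes tested were called lower in minus BMP7 and 6.52% in minus CHIR. The 2 counts are therefore not on equal terms. Among the calls with minus CHIR below the mild range, Pltp, a phospholipid transfer protein, stood at 66.5 and 44.9 RPKM in minus BMP7 and 6.76 and 4.33 RPKM in minus CHIR, against 19 to 31.5 RPKM in the mild withdrawals (3.11 ± 0.16, limma adjusted p = 0.00243). The cytokine gene Tslp stood at 21.4 and 31.6 RPKM in minus BMP7 and 4.06 and 1.74 RPKM in minus CHIR, against 7.08 to 10.4 RPKM in the mild withdrawals (2.86 ± 0.33). Both genes were therefore below the mild range in minus CHIR and above it in minus BMP7. Krt15, a keratin, lay on the same sides, further above the mild range and less far below it, with 75.3 and 57.9 RPKM in minus BMP7 and 2.21 and 1.52 RPKM in minus CHIR, against 2.59 to 6.54 RPKM in the mild withdrawals (4.56 ± 0.22, limma adjusted p = 0.00243). The scaffold gene Ank3 (1.68), the receptor subunit gene Neto2 (1.84), Bex1 (2.87), the sodium channel subunit gene Scn4b (2.83) and the myosin binding protein gene Mybpc1 (4.02) were the others of the 8 named from this class. Of the 8, all but Neto2 were above the mild range in both minus BMP7 libraries. Scn4b reached 1 RPKM in only 1 other withdrawal library. It passed the filter through minus BMP7, so its call is no support.

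Of the genes described with the most negative differences, Dkk2, given above, and 7 others lay below the mild range without BMP7 and above it without CHIR on both days. For them the difference joins a lower level in minus BMP7 and a higher level in minus CHIR. Igfbp2, for instance, stood at -1.27 ± 0.24 against the mild withdrawals in minus BMP7 and at 1.54 ± 0.24 in minus CHIR. Npy, the neuropeptide Y gene, stood at 8.48 and 9.35 RPKM in minus BMP7, 228 and 256 RPKM in minus CHIR, 77.6 and 48.2 RPKM in minus Heparin and 118 and 77.1 RPKM in minus Y27632. The 2 withdrawals lay on opposite sides of the mild libraries with no overlap on either day (-4.61 ± 0.25, limma adjusted p = 0.00315). Sncg, which encodes γ-synuclein, showed the same arrangement at 9.74 and 11.1 RPKM in minus BMP7, 193 and 270.5 RPKM in minus CHIR and 93.7 to 119 RPKM in the mild withdrawals (-4.33 ± 0.22). So did the galectin gene Lgals3 (-3.45 ± 0.24), the IGF binding protein gene Igfbp2 (-2.82 ± 0.27) and Plvap (-3.03 ± 0.09), a membrane protein best known from endothelium, which here stood at 15.1 and 14.8 RPKM in minus BMP7 and 130.2 and 129 RPKM in minus CHIR. Lmo1 (-2.81) and Otor (-2.79) belong to the same class. Minus LIF day 8 was above both minus CHIR libraries for Npy (550 RPKM), Igfbp2 (1167 RPKM), Plvap (232 RPKM), Lmo1 (44.7 RPKM) and Otor (164.7 RPKM). For Sncg (150 RPKM) and Dkk2 (37.6 RPKM) it was above the mild range only, and for Lgals3 (39.9 RPKM) below it. Apart from Lgals3, a level above the mild range was thus not particular to minus CHIR.

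A second set was below the mild range without BMP7 and, without CHIR, not on the same side outside it on both days. Cxcl12, the chemokine that binds the receptor Cxcr4, stood at 19.1 and 17.9 RPKM in minus BMP7 and 198 and 126 RPKM in minus CHIR, against 104 to 168 RPKM in the mild withdrawals (-3.02 ± 0.15, limma adjusted p = 0.00243). Nell1 stood at 1.42 and 1.14 RPKM in minus BMP7 and 28.6 and 38.3 RPKM in minus CHIR, against 21.3 to 35.3 RPKM in the mild withdrawals (-3.91 ± 0.17). Cbr2, a carbonyl reductase, differed by -3.50 ± 0.15, Kazald1 by -3.17 ± 0.23, Tcf24 by -3.09 ± 0.19 and Olfm2 by -3.04 ± 0.27. In these 4 genes the minus BMP7 libraries held 0.406 to 1.74 RPKM and no minus CHIR library held less than 8.13 RPKM. Foxc2, a forkhead factor of mesenchyme and podocytes, stood at 0.234 and 1.02 RPKM in minus BMP7 and 9.59 and 10.9 RPKM in minus CHIR, and was below the mild range of 11.9 to 25.3 RPKM in both (-2.83 ± 0.18). The sodium pump subunit Atp1b1 had the same order, at 5.67 and 3.96 RPKM in minus BMP7 and 30.0 and 30.1 RPKM in minus CHIR, against 30.8 to 74.3 RPKM in the mild withdrawals (-2.43 ± 0.17).

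Some transcripts were high without BMP7 and near 0 in the other libraries. Tac1, Fam162b, Ccl8, Pvalb, S100g and Casp1 reached 1 RPKM in minus BMP7 alone and passed the filter only through it, so their levels are given as a description. Tac1, the gene of substance P, stood at 7.87 and 26.7 RPKM in minus BMP7 and was listed at 0 in both minus CHIR and all 4 mild libraries. Fam162b stood at 9.61 and 20.4 RPKM in minus BMP7 and the chemokine gene Ccl8 at 17.8 and 4.08 RPKM, and both were listed at 0 in the other 7 libraries. Pvalb, a calcium-binding protein, stood at 11.8 and 12.8 RPKM in minus BMP7 and 0 and 0.181 RPKM in minus CHIR. Another calcium-binding protein gene, S100g, stood at 12.8 and 10.7 RPKM in minus BMP7 and 0 and 0.677 RPKM in minus CHIR. Tbx1, a T-box factor of pharyngeal mesoderm, stood at 12.9 and 50.5 RPKM in minus BMP7 and 1.15 and 0.395 RPKM in minus CHIR, against 1.07 to 2.65 RPKM in the mild withdrawals (3.95 ± 0.59).

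Casp4 and Casp1 encode inflammatory caspases. Casp4 was called higher and stood at 77.9 and 110.0 RPKM in minus BMP7 and 2.99 and 17.4 RPKM in minus CHIR, against 1.34 to 1.99 RPKM in the mild withdrawals (3.45 ± 0.54). Casp1 stood at 16.8 and 7.61 RPKM in minus BMP7 and 0.126 and 0.381 RPKM in minus CHIR and was listed at 0 in the mild withdrawals. Cp, the copper carrier ceruloplasmin, stood at 23.8 and 21.7 RPKM in minus BMP7 and 0.0372 and 2.19 RPKM in minus CHIR. It passed the filter only through minus BMP7, so its level is given as a description. Ly6h, a surface protein gene, stood at 176 and 73.1 RPKM in minus BMP7 and 1.96 and 7.44 RPKM in minus CHIR (4.52 ± 0.60). The acute phase gene Saa3 had the greatest day 4 difference among the genes described, 8.62, with 1642 and 1172 RPKM in minus BMP7 and 3.18 and 238 RPKM in minus CHIR, but was not called (5.46 ± 1.61, limma adjusted p = 0.128). The LIF and STAT3 list, to which Saa3 belongs, had a median of 0.93 on day 4 and -0.02 on day 8. Of 15 tested members 1 was called higher in minus BMP7 and none lower, where 2.24% and 3.95% of all genes tested were. It was Socs2, a suppressor of cytokine signalling, which stood at 43 and 67.4 RPKM in minus BMP7 and 4.63 and 13.9 RPKM in minus CHIR (2.58 ± 0.42).

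Feedback genes of FGF and ERK signalling were among the lower calls in minus BMP7. Of 16 tested, 3 were called lower and none higher, where 3.95% and 2.24% of all genes tested were. Spry1, an inhibitor of receptor tyrosine kinase signals, stood at 40.2 and 54.4 RPKM in minus BMP7 and 183 and 154 RPKM in minus CHIR, against 109 to 147 RPKM in the mild withdrawals (-1.82 ± 0.19, limma adjusted p = 0.00944), so the withdrawals lay on opposite sides. Etv5, an ETS factor induced by FGF, was arranged the same way (-0.78 ± 0.10), and Spry2 was above the mild range without CHIR (-0.68 ± 0.13). Among 20 tested immediate-early genes 1 was called each way, where 2.24% and 3.95% of all genes tested were. Jun was called higher (0.71 ± 0.10) and the nuclear receptor gene Nr4a1 lower (-2.01 ± 0.37), at 31.6 and 65.1 RPKM in minus BMP7 and 123 and 282 RPKM in minus CHIR. The Notch list had 1 lower call in 14 tested genes, Notch2 (-0.80 ± 0.12), beside 3.95% of all genes. Hey1, a Notch and BMP target, stood at 9.18 and 41.7 RPKM in minus BMP7 and 94.8 and 72.8 RPKM in minus CHIR and did not pass (-2.01 ± 0.58, limma adjusted p = 0.122). The YAP list with 11 tested genes and the p53 list with 17 had 1 call each, both lower, beside 3.95% of all genes: Axl (-0.69 ± 0.14), a receptor kinase, and the kinase Plk2 (-1.01 ± 0.11). No member of 5 other lists was called by limma. At an unadjusted p under 0.05 stood 1 of 26 tested cell cycle genes, 4 of 17 actin and SRF targets, 1 of 18 cholesterol synthesis genes, 2 of 11 interferon response genes and 2 of 12 genes of the Lin28 axis. Lin28a itself stood at 24.9 and 30.0 RPKM in minus BMP7 and 16.1 and 8.01 RPKM in minus CHIR (1.19 ± 0.35, limma adjusted p = 0.125).

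Matrix genes were called in both directions. Of 15 tested fibrillar matrix genes, 2 were called higher and 3 lower in minus BMP7, where 2.24% and 3.95% of all genes tested were. Col3a1, a collagen of loose connective tissue, stood at 176 and 241 RPKM in minus BMP7 and 13.1 and 33.9 RPKM in minus CHIR, against 2.72 to 4.05 RPKM in the mild withdrawals (3.23 ± 0.33), so both were above and minus BMP7 further. Col6a3 had the same order (1.18 ± 0.11). Col1a1 went the other way, with 1.37 and 1.83 RPKM in minus BMP7 and 19.2 and 7.82 RPKM in minus CHIR, against 7.64 to 16.4 RPKM in the mild withdrawals (-2.37 ± 0.36). Tnc differed by -1.09 ± 0.22. Col2a1, the cartilage collagen, stood at 0.669 and 0.675 RPKM in minus BMP7 and 21 and 9.25 RPKM in minus CHIR (-3.17 ± 0.27, limma adjusted p = 0.00646), and Alpl, a phosphatase of bone, differed by -1.05 ± 0.20. They were the 2 called of 10 tested cartilage and bone genes, where 3.95% of all genes tested were called lower, while Sox9, a cartilage and early nephron factor, did not pass (-1.68 ± 0.35, limma adjusted p = 0.0545). Of 14 tested basement membrane genes, Lamb1 (0.88 ± 0.14), Col4a5 (0.93 ± 0.16) and Lama5 (0.97 ± 0.16) were called higher in minus BMP7 and Agrn (-1.05 ± 0.14) lower, where 2.24% and 3.95% of all genes tested were. Lama5, a laminin chain of kidney basement membranes, was below the mild range in both, at 4.96 and 5.04 RPKM in minus BMP7 and 2.5 and 1.69 RPKM in minus CHIR, against 5.48 to 7.56 RPKM in the mild withdrawals.

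Differentiation genes gave no common direction. Of 13 tested genes of the early nephron 2 were called higher in minus BMP7 and 1 lower, where 2.24% and 3.95% of all genes tested were. Fgf8, a growth factor of the early nephron, stood at 12.4 and 7.02 RPKM in minus BMP7 and 4.66 and 0.388 RPKM in minus CHIR (1.89 ± 0.36). Pla2g7, a lipase, stood at 44.5 and 45.7 RPKM in minus BMP7 and 14.4 and 14 RPKM in minus CHIR (1.60 ± 0.17). The cell cycle inhibitor Cdkn1c, an imprinted gene, stood at 116 and 122 RPKM in minus BMP7 and 423 and 242 RPKM in minus CHIR (-1.42 ± 0.21), and with Gnas (-0.69 ± 0.13) it made 2 lower calls among 20 tested imprinted genes, beside 3.95% of all genes. Of the 16 genes listed for nephron tubules only 4 could be tested and Atp1b1 was called, and of 16 podocyte genes 10 were tested and Foxc2 was called. Both calls were lower, where 3.95% of all genes tested were called lower. With so few members tested, 1 call says little about a list. The summed level of the tubule list rested on Spp1, the secreted protein osteopontin, which stood at 1625 and 1251 RPKM in minus BMP7 and 480.2 and 2169 RPKM in minus CHIR, while the tubule markers Umod, Slc12a1, Slc34a1 and Hnf4a were listed at 0 in all 9 libraries.

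Markers of other cell types were counted in the same libraries. Of 18 tested stroma genes 3 were called higher and 4 lower in minus BMP7, where 2.24% and 3.95% of all genes tested were. Foxd1, which defines the renal stroma, stood at 2.28 and 3.51 RPKM in minus BMP7 and 0.316 and 0.249 RPKM in minus CHIR (1.58 ± 0.21), and Ntn1 differed by 1.65 ± 0.16. Pdgfrb, a receptor of pericytes, was called lower at 49.2 and 38.7 RPKM in minus BMP7 and 90.5 and 108 RPKM in minus CHIR, and so were Rgs5, Cspg4 and Col1a1. The summed level of the 20 listed stroma genes was 1616 and 1367 RPKM in minus BMP7 and 1727 and 2079 RPKM in minus CHIR, against 881 to 1114 RPKM in the mild withdrawals, and none was listed at 0 in all 9. The part of stroma cells in the differences above was not tested. Foxd1, and below C1qb and Cldn1, reached 1 RPKM in minus BMP7 alone and passed the filter only through it. No erythroid gene passed the filter, and the 9 in the table summed to at most 0.712 RPKM in minus BMP7 and minus CHIR. Of 12 macrophage genes 3 were tested, and C1qb was called higher, at 3.69 and 1.59 RPKM in minus BMP7 and 0.192 and 0 RPKM in minus CHIR, while C1qa, C1qc, Cx3cr1 and Ptprc were listed at 0 in all 9. The list summed to 17.1 and 15.4 RPKM in minus BMP7, 10.6 and 18.02 RPKM in minus CHIR and 13.6 to 17.9 RPKM in the mild withdrawals. Of 14 endothelial genes 2 were tested, with Egfl7 called lower (-0.69 ± 0.14), while Pecam1, Cdh5 and Kdr stayed under 0.5 RPKM in minus BMP7 and minus CHIR. The endothelial list summed to 60.5 and 94.7 RPKM in minus BMP7 and 106.8 and 145.1 RPKM in minus CHIR, against 51.3 to 60.1 RPKM in the mild withdrawals, most of it from Emcn and Egfl7. Of 6 tested epithelial genes Cldn1 was called higher (0.86 ± 0.17), at 2.24 and 2.1 RPKM in minus BMP7, none of 4 tested ureteric bud genes was called, with 1 at an unadjusted p under 0.05, and among 10 tested neuronal and muscle genes Tnnt2 was called higher (1.32 ± 0.25) and Tubb3 lower (-2.03 ± 0.39). The macrophage, endothelial, epithelial and neuronal and muscle calls also stand beside 2.24% of all genes tested called higher and 3.95% lower. Single calls in lists with so few members tested say little about these cell types.

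The 2 days differed most in minus CHIR. On day 8, beside day 4, 110 genes were higher and 66 lower by at least 1 in minus BMP7, 451 and 360 in minus CHIR, 41 and 87 in minus Heparin and 19 and 111 in minus Y27632, out of 12010 without short RNAs. Spearman's rank correlation across these 12010 genes, which are not independent replicates, was 0.983 between the days of minus BMP7 and 0.955 between those of minus CHIR. Minus CHIR day 4 correlated at 0.962 to 0.975 with the mild libraries and minus CHIR day 8 at 0.918 to 0.928, and minus CHIR day 8 correlated at 0.9503 and 0.9522 with minus BMP7. There is 1 library per day, so a change with time and a difference of that library cannot be told apart.

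Glycolysis and hypoxia genes showed the split between days most plainly. None of 22 tested was called by limma, 4 had an unadjusted p under 0.05, and the median difference of the 22 was -1.91 on day 4 and 0.56 on day 8. A difference that turns between the days counts as spread in the fit, so limma could hardly call this pattern. Pgk1, phosphoglycerate kinase, stood at 10.7 and 42.5 RPKM in minus BMP7 and 70.6 and 14.8 RPKM in minus CHIR, against 117 and 101 RPKM in minus Heparin and 140.2 and 115 RPKM in minus Y27632. All 4 values of the withdrawals were below the mild range, with minus BMP7 lower on day 4 and minus CHIR lower on day 8. The aldolase gene Aldoa stood at 509 and 954 RPKM in minus BMP7 and 1438 and 439.5 RPKM in minus CHIR, against 1610.5 to 2235 RPKM in the mild withdrawals. Among the members with the greatest mean difference, the glucose transporter gene Slc2a3 stood at 12.7 and 19.8 RPKM in minus BMP7 and 101 and 33.1 RPKM in minus CHIR (-1.81 ± 0.48, limma adjusted p = 0.101), and Ndrg1 at 3.79 and 8.23 RPKM in minus BMP7 and 56.9 and 12.4 RPKM in minus CHIR (-2.07 ± 0.67, limma adjusted p = 0.151). The summed level of the list was 1842 and 3181 RPKM in minus BMP7, 4825 and 1792 RPKM in minus CHIR and 5258 to 7450.2 RPKM in the mild withdrawals. Minus CHIR day 4 was thus the highest of the 4, and minus CHIR day 8 the lowest.

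**Figure D5:**
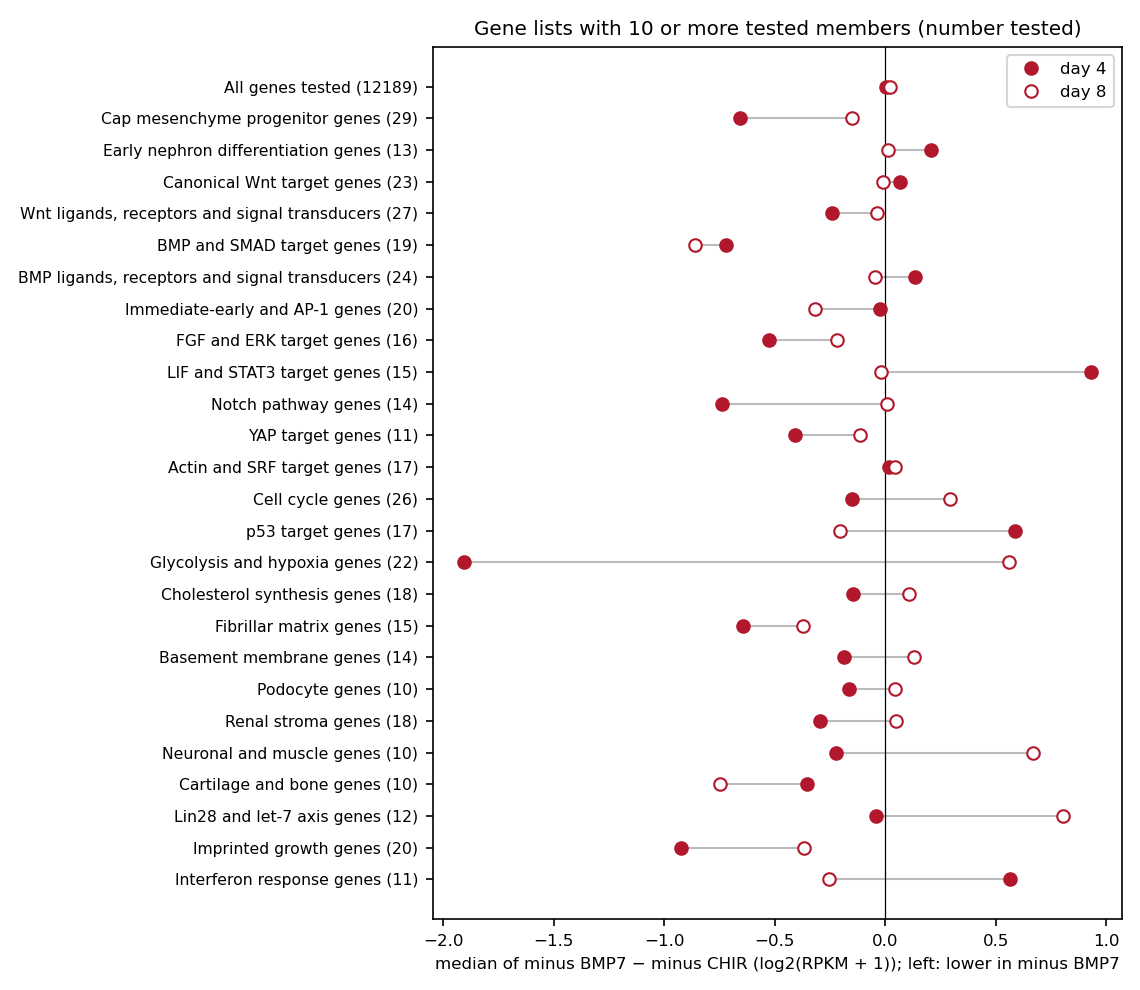
Median log2(RPKM + 1) difference of minus BMP7 less minus CHIR (x axis) for each gene list with at least 10 tested members, on day 4 (filled) and day 8 (open); the number tested is in parentheses. The medians of BMP and SMAD targets are negative on both days, and those of glycolysis and hypoxia genes are -1.91 on day 4 and 0.56 on day 8.

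Such late changes in minus CHIR were counted over all genes, by a rule chosen after the values had been seen and with no test. Among 616 genes other than short RNAs that were lower in minus BMP7 by at least 1 on day 4, 84 (13.6%) differed by less than 0.5 on day 8 and were lower by at least 1 in minus CHIR day 8 than in minus CHIR day 4. Cpa1, a carboxypeptidase gene, stood at 2.03 and 3.23 RPKM in minus BMP7 and 86.1 and 4.35 RPKM in minus CHIR, against 39.9 to 89.9 RPKM in the mild withdrawals. P4ha1, a collagen prolyl hydroxylase, stood at 24 and 41.8 RPKM in minus BMP7 and 113 and 32.4 RPKM in minus CHIR. Minus CHIR thus came near the level of minus BMP7 only on day 8 in both genes. Among 531 genes higher in minus BMP7 by at least 1 on day 4, 84 (15.8%) differed by less than 0.5 on day 8 and were higher by at least 1 in minus CHIR day 8 than in minus CHIR day 4. The lipoprotein lipase gene Lpl stood at 62.4 and 49.5 RPKM in minus BMP7 and 4.72 and 47.5 RPKM in minus CHIR, against 2.59 to 4.95 RPKM in the mild withdrawals. Mmp13, a collagenase, stood at 479.5 and 224 RPKM in minus BMP7 and 47 and 162 RPKM in minus CHIR, and the metallothionein gene Mt2 at 125 and 78.3 RPKM in minus BMP7 and 10.1 and 74.7 RPKM in minus CHIR. Serpine2, a protease inhibitor, stood at 613 and 399.5 RPKM in minus BMP7 and 135 and 551 RPKM in minus CHIR. None of these 6 genes was called. The fit counts a change of the difference between days as spread, so it could hardly call genes that meet this rule.

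Some losses were common to both withdrawals. A level lower by at least 1 than the mild mean on both days in both withdrawals was found for 66 genes with a mild mean of at least 5 RPKM, 10 of them short RNAs. Of the other 56, 9 were called lower in minus BMP7 than in minus CHIR and none higher, where 3.95% and 2.24% of all genes tested were. These genes were picked for a large distance from the mild libraries, so all genes tested are not an equal background. Sprr1a, a cornified envelope protein, stood at 0.366 and 0.486 RPKM in minus BMP7 and 18.9 and 0 RPKM in minus CHIR, against 30.0 to 224 RPKM in the mild withdrawals, and was not called (-1.65 ± 1.04). The imprinted gene Phlda2 stood at 2.21 and 0.748 RPKM in minus BMP7 and 6.27 and 3.74 RPKM in minus CHIR, against 22.4 to 44.2 RPKM in the mild withdrawals, and the phosphofructokinase gene Pfkp at 3.2 and 5.44 RPKM in minus BMP7 and 29.3 and 9.9 RPKM in minus CHIR, against 69.8 to 92.9 RPKM. Snap91, a clathrin adaptor, was low in both and called lower without BMP7, at 1.58 and 1.05 RPKM in minus BMP7 and 15.2 and 6.38 RPKM in minus CHIR (-2.25 ± 0.26), as were the vesicle protein gene Stxbp2 (-2.14 ± 0.22) and Ndrg2 (-2.39 ± 0.38). Minus LIF day 8 was also below the mild range for Sprr1a (2.73 RPKM), Phlda2 (2.77 RPKM), Pfkp (28.0 RPKM), Snap91 (3.01 RPKM) and Stxbp2 (13.3 RPKM). In these genes the loss was thus not particular to the 2 withdrawals compared. Ndrg2 stood at 67.6 RPKM there, just under its mild range of 69.0 to 83.3 RPKM. A level higher by at least 1 than the mild mean in both withdrawals on both days was found for 107 genes with a mean of at least 5 RPKM in a withdrawal, short RNAs left out. Of them 23 were called higher and 4 lower in minus BMP7 than in minus CHIR, where 2.24% and 3.95% of all genes tested were. The 4 lower calls are near that share, and this set was picked by distance from the mild libraries as well. Hopx, a homeodomain protein without DNA binding, stood at 171 and 188 RPKM in minus BMP7 and 77.3 and 31.8 RPKM in minus CHIR, against 2.46 to 6.97 RPKM in the mild withdrawals (1.83 ± 0.34).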

How the data were processed

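The 9 withdrawal libraries are RNA-seq of total RNA, 1 per component and day. The authors deposited 1 table of RPKM values for them, and for these libraries the aligner, the counter and the build are not given in the sources. Reads per library were estimated from the steps of low values, of which 41.2% to 47.8% lay within 0.1 read of a whole number, so depth is a rough estimate and no counts were tested. Of 23947 lines, 2 shifted lines and 27 symbols turned into dates were left out.

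Values were taken as log2(RPKM + 1) and fitted with limma 3.58.1 (R 4.3.3) with terms for component and day, residual df 3 and a variance trend, tested 2-sided, with Benjamini-Hochberg adjustment over 12189 genes. Over 2 against 2 libraries an exact permutation test that ignores the pairing by day cannot go below p = 0.333. A permutation test that keeps the pairing has a still higher floor. Alternatives were other pseudocounts, filters, scalings, designs and libraries left out.

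The gene lists were chosen with earlier results of these data known. Named genes are Cited1, Sall1, Lef1, Six2, Wnt4, Axin2, Id1, Id3 and Bmp7, the 15 called genes with the largest difference each way that held on both days, up to 4 called members of each list, up to 8 per position against the mild range, and genes lost in both withdrawals. The Hox genes, genes that moved late in minus CHIR, Smad7, Id2, Sox9, Hey1, Saa3, Cxcl12, Pgk1, Aldoa, Hopx, Spp1, Pdgfrb, further cap mesenchyme calls and the genes lost in both withdrawals other than Sprr1a were chosen after their values were seen.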

Additional observations from a re-analysis of the deposited data

Results flagged for a closer look

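The difference of minus BMP7 less minus CHIR had opposite signs on the 2 days in glycolysis and hypoxia genes. The median of the list was -1.91 on day 4 and 0.56 on day 8, that of Pgk1 alone -2.62 on day 4 and 1.46 on day 8, and that of Aldoa -1.50 on day 4 and 1.12 on day 8. With 1 library per component and day the difference between days was not tested.

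The minus LIF day 8 library, which is in neither group compared, held the highest value of the 9 libraries for 32 of 130 genes checked singly. For 2 of them it was set apart further. Dkk1 stood at 106.7 RPKM and Otor at 164.7 RPKM there, each at least 4 times the highest of the other 8 libraries. There is no second minus LIF library, and neither value was tested.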

How the results depend on the processing

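The counts of 481 genes lower and 273 higher in minus BMP7 depend on the libraries in the fit. Leaving out 1 library at a time gave 69 to 638 lower and 53 to 525 higher, 587 to 5271 calls of minus BMP7 against the mild withdrawals (3716 in all 9) and 29 to 4098 of minus CHIR against them (1651 in all 9). Where a component kept 1 library, that library was assumed to vary like the others. The fit over the 4 libraries gave 6 lower and 5 higher. Lower calls numbered 234 with no filter and 292 with no day term, and higher calls 159 with a filter of RPKM 5. Minus CHIR against the mild withdrawals had 242 calls with no filter and 896 with no day term. Differences of at least 1 on both days numbered 447 lower with a pseudocount of 0.1, and 97 lower and 82 higher with one of 5. The cause of these shifts was not tested. Quantile normalization (450 lower, 296 higher), trimmed-mean scaling (471 and 272), no variance trend (469 and 282), the fit without minus LIF (485 and 277) and, chosen after seeing the data, the fit without short RNA genes (605 and 357) stayed within 1.5 times. Of 130 genes checked singly, 101 were called, 3 of these (Npy, Sncg and Krt15) under all 19 alternatives and 27 more under all but the 4-library fit. With single libraries left out, the sign turned for 9 uncalled genes: Six2 (-0.17 to 0.66, with a second value of -0.08), Wnt4 (-0.062 to 0.31), Bmp7 (-0.088 to 1.67), Pgk1 (-1.97 to 0.82, and 0.75), Aldoa (-1.12 to 0.74, and 0.63), Sprr1a (-3.50 to 0.20), P4ha1 (-1.86 to 0.030), Serpine2 (-0.27 to 1.98) and Hoxa10 (-0.095 to 0.32, and -0.0086). The libraries pair by day, so the fit is paired through its day term, which acts as the replicate block. Without that block 292 genes were lower and 198 higher. The pairing within the 2 withdrawals alone is the fit over the 4 libraries above, with 6 lower and 5 higher calls. Their labels carry no replicate numbers. The shallowest library, minus Heparin day 4, limits what can be said of transcripts under about 1 RPKM.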
